A study of Drosophila melanogaster with 25 samples.

Results

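The Cpr genes of Drosophila melanogaster encode cuticle proteins that share the Rebers-Riddiford domain, a stretch that binds chitin. They were taken as every probe set that the array's annotation pairs with a single gene symbol starting with Cpr and a digit. This gave 67 probe sets for 66 genes, out of 11982 genes with a probe set of a single symbol and 18769 probe sets tested. Only Cpr47Ef had a second probe set, which was at the lowest value on 24 arrays and reached 7.01 on the remaining one, so the probe set with the higher mean stood for that gene. All 66 symbols are in the RefSeq gene table, which holds 70 symbols of this form. A further 4 probe sets that carry a Cpr symbol together with another symbol were left out.

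Insect cuticle is built from chitin fibres embedded in proteins, which the epidermis secretes at its apical side before each moult. The Rebers-Riddiford proteins are the most numerous family among them, and which of them an epithelium makes is known to vary with stage and body region. Imaginal discs are the larval epithelia that form the adult appendages and eyes and later secrete their own pupal and adult cuticle, including the corneal lens over each facet of the compound eye. Most symbols of the family carry the cytological position of the gene, so that Cpr49Ac and Cpr49Ag lie in the same band.

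RNA of imaginal discs of the third larval instar was measured on 25 Affymetrix arrays in 8 groups. There were 3 groups of leg discs, wild-type, carrying a UAS-ey transgene, and carrying UAS-ey in an ato mutant, with 3 arrays each. Wing discs were wild-type or carried UAS-ey, antennal discs were wild-type or bore the title Uey, again with 3 arrays each, and 4 arrays held wild-type eye discs. Eyeless (ey) is the Pax6-type factor that starts eye formation and atonal (ato) is the proneural gene of the first photoreceptors. The comparisons thus ask how cuticle genes respond to ey in discs that form no eye. They also ask how UAS-ey leg discs differ when ato is mutant. The sources used here name neither the driver of UAS-ey nor the allele of ato, nor do they spell out Uey, which was read as UAS-ey in antennal discs. No ato-mutant group without UAS-ey was part of the comparisons. The series calls its samples biological replicates and says no more of their origin. P-values measure the spread between these samples.

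Values are log2 signals, so a difference of 1 is a 2-fold difference, and all arrays share a lowest value of 6.91, the floor, below which nothing was recorded. A gene was called when its adjusted p in limma's moderated test, adjusted over all 18769 probe sets, was under 0.05. A fold against a group whose arrays were all at the floor is a lower bound. In whole discs, fewer cells of a type and less RNA per cell cannot be told apart.

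The groups were divided into 2 sets by a labelling control, each group being placed whole. The 3′ probe set of the Bacillus phe control read 7.89 to 9.50 on 13 arrays, those of UAS-ey leg, both antennal and eye discs, and 9.77 to 11.15 on the other 12, those of wild-type and ato-mutant leg and both wing groups. The split was narrow. Wild-type wing array 1, at 9.77, lay nearer to 9.50 than to the next array of its set, at 10.37. The mean over 6 phe probe sets overlapped between the sets. It was 7.63 to 8.49 in eye and 7.79 to 8.29 in wild-type wing discs. Comparing UAS-ey leg discs with either other leg group, or antennal with leg discs, crossed the sets, so that array set and group cannot be told apart there. The comparisons within wing discs, within antennal discs, of ato-mutant UAS-ey with wild-type leg discs, of leg with wing and of eye with antennal discs lay within a set.

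Most Cpr genes were low or flat. The floor held on all 25 arrays for 10 genes, Cpr47Ea, Cpr47Ed, Cpr49Aa, Cpr49Ab, Cpr50Ca, Cpr62Bc, Cpr65Az, Cpr67Fb, Cpr92F and Cpr97Eb. Signal above the floor on all 25 arrays was found for 37 genes, and 19 were above it on some. Of the 56 genes above the floor on at least 1 array, 17 had group means that spanned at least 1 on the log2 scale, 15 spanned 0.5 to 1 and 24 spanned less. By group, the genes at the floor on every array numbered 15 in wild-type leg, 13 in UAS-ey leg, 13 in ato-mutant leg, 13 in wild-type wing and 12 in UAS-ey wing discs. They numbered 18 in wild-type antennal, 19 in Uey antennal and 17 in eye discs.

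**Figure D1:**
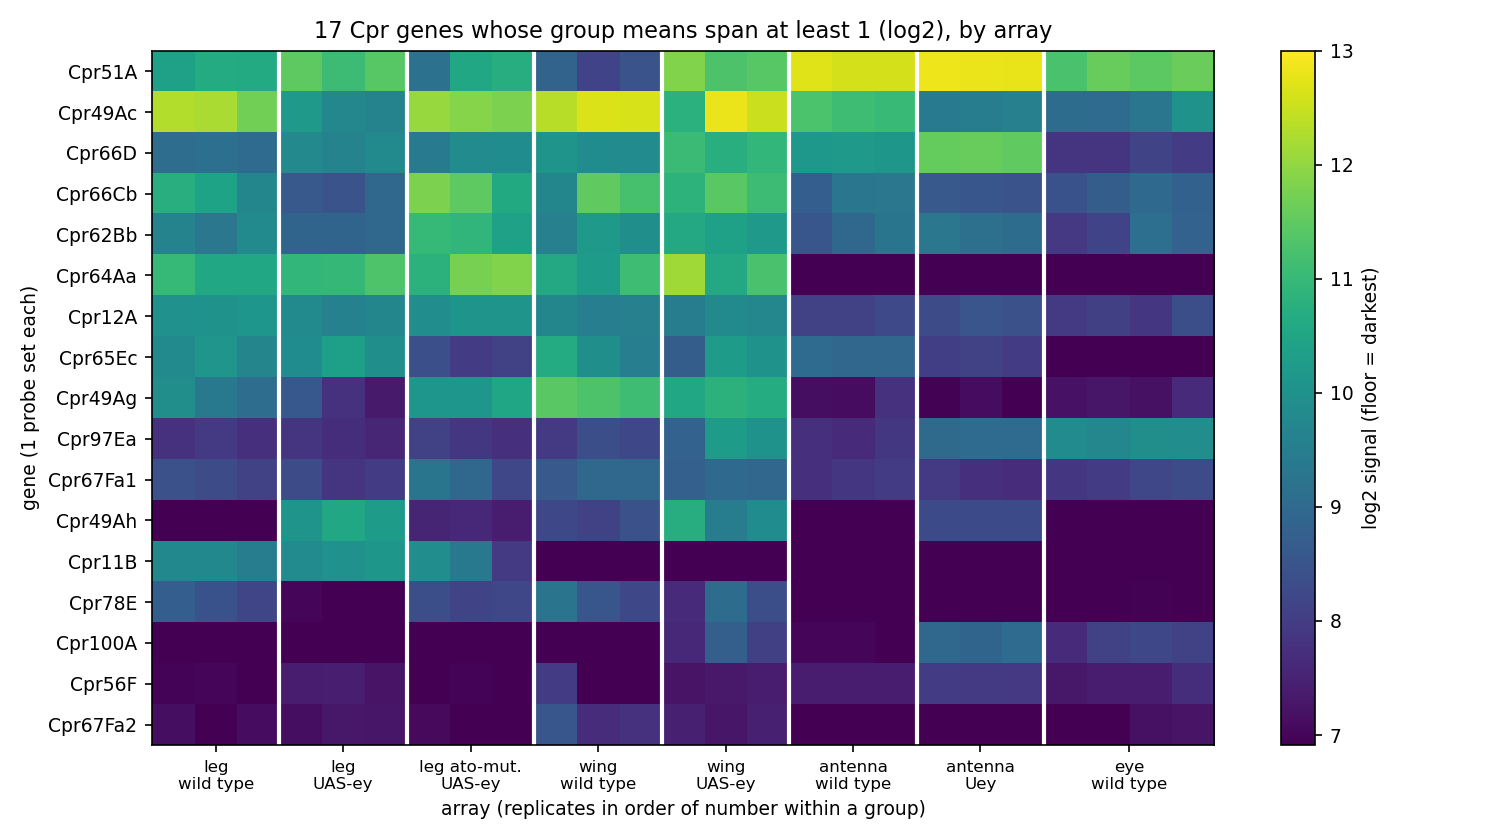
Log2 signal (colour) of the 17 Cpr genes whose group means span at least 1, one row per gene and one column per array, with arrays ordered by group. Cpr64Aa is at the floor of 6.91 in both antennal groups and in eye discs, Cpr11B on all wing, antennal and eye arrays, and Cpr100A on all leg arrays.

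Wild-type discs differed in which Cpr genes they held. Among the 4 wild-type discs, 25 of 66 Cpr genes differed in the moderated F-test (37.9%, against 29.3% of all probe sets). Between leg and wing discs 9 were called, 3 higher and 6 lower in leg (13.6%, against 5.12% of all probe sets, 2.24% higher and 2.88% lower). Between antennal and leg discs 7 were called, 2 higher and 5 lower in antenna (10.6%, against 5.89%, 2.43% higher and 3.46% lower), and between eye and antennal discs 8 were called, 4 in each direction (12.1%, against 10.6%, 5.43% higher and 5.18% lower).

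Markers of other tissues differed between these discs too. From leg to antennal discs 5 of 11 salivary gland, 1 of 5 fat body, 2 of 10 haemocyte and 3 of 8 muscle genes were lower, and 2 of 5 trachea markers were higher. From antennal to eye discs 3 salivary gland markers were higher, 2 haemocyte markers were lower, and of the muscle genes 1 was higher and 3 lower. Between leg and wing discs 0 genes of these 5 lists were called (limma), and an unadjusted p under 0.05 was reached by 1 salivary gland, 1 fat body, 0 haemocyte, 1 trachea and 2 muscle genes. The summed log2 level of the salivary gland markers was 13.45 to 14.11 in leg, 13.08 to 14.74 in wing, 11.61 to 11.72 in antennal and 12.09 to 14.14 in eye discs, with ng1 and ng2 at the floor in all 4. That of the muscle genes was 11.73 to 11.94, 11.66 to 11.68, 10.95 to 11.01 and 10.47 to 10.68 in the same order, with fln and Mlc2 at the floor in all 4. That of the haemocyte markers was 12.78 to 13.36, 12.71 to 13.27, 12.38 to 12.60 and 11.23 to 12.03, with srp at the floor in all 4. The part of these tissues in the Cpr differences was not tested.

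Cpr64Aa and Cpr11B were each absent from the readout of some discs. Cpr64Aa read 10.98, 10.53 and 10.57 in wild-type leg discs and 10.59, 10.28 and 11.11 in wild-type wing discs, and stayed at the floor on each of the 10 arrays of antennal and eye discs. It was at least 13.7-fold higher in leg than in antennal discs (log2 change from leg to antenna -3.78, SE 0.30, adjusted p = 2e-07). Cpr11B, named after its values were seen, read 9.75, 9.75 and 9.49 in wild-type leg discs and was at the floor on every wing, antennal and eye array. It was at least 6.73-fold higher in leg than in wing discs (log2 difference 2.75, SE 0.29, adjusted p = 5e-06), and so was the only family member above the floor on all leg arrays and at the floor on all others.

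Several genes followed a graded order across discs. Cpr51A read 12.71, 12.61 and 12.61 in wild-type antennal discs, 11.25 to 11.61 in eye discs, 10.39, 10.65 and 10.64 in leg discs and 8.85, 8.14 and 8.46 in wing discs. No pair of these groups overlapped, and each step that was tested passed, with 2.08 from leg to antenna and 2.08 from wing to leg (SE 0.28 each, adjusted p = 1.1e-04 for both). Cpr49Ag ran in another order, with 11.44, 11.30 and 11.11 in wing, 9.91, 9.38 and 9.09 in leg, 7.13, 7.12 and 7.77 in antennal and 7.18 to 7.64 in eye discs. Wing lay above leg and leg above antenna without overlap, while antennal and eye arrays overlapped. Cpr12A read 9.99, 10.04 and 10.11 in leg discs and 8.12, 8.10 and 8.26 in antennal discs, a difference of 1.89 on the log2 scale (change from leg to antenna -1.89, SE 0.11, adjusted p = 2e-09). The eye arrays of Cpr12A, at 7.87 to 8.38, overlapped the antennal arrays.

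The Cpr genes called between eye and antennal discs, 8 of 66, were near the share of all probe sets (12.1%, against 10.6%). Cpr66D, which encodes a known structural protein of the adult corneal lens, was low in eye discs of this larval stage, at 7.84 to 8.17 against 10.15, 10.20 and 10.13 in antennal discs. That was a fall of 2.20 on the log2 scale (log2 change -2.20, SE 0.10, adjusted p = 4.1e-12), and eye discs had the lowest values of Cpr66D of all 8 groups. Cpr65Ec was at the floor on all 4 eye arrays and read 9.04, 8.92 and 8.93 in antennal discs, at least 4.14-fold more (adjusted p = 4.3e-05). Cpr49Ac (log2 change -1.78, SE 0.34) and Cpr51A (log2 change -1.17, SE 0.26) were also lower in eye discs, with adjusted p of 0.0015 and 0.0051.

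The genes higher in eye discs were Cpr97Ea, Cpr100A, Cpr72Ea and Cpr72Eb. Cpr97Ea read 9.73 to 9.93 in eye and 7.75, 7.65 and 7.89 in antennal discs, a rise of 2.08 (SE 0.22, adjusted p = 1.6e-06). Cpr100A read 7.66 to 8.24 in eye and 7.01, 7.02 and 6.91 in antennal discs, a rise of 1.04 (SE 0.17, adjusted p = 2.7e-04). For both genes the eye arrays lay above every array of the other 3 wild-type discs. Cpr72Ea and Cpr72Eb, named after their values were seen, were 0.79 and 0.41 higher. Cpr72Ec, also a known corneal lens component and likewise named after its values were seen, read 7.05 to 7.44 in eye and 6.91 to 7.17 in antennal discs and was not called.

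Most Cpr genes, like most probe sets, were called in no disc with ectopic ey. In leg discs 11 were called, 5 higher and 6 lower (16.7%, against 19.4% of all probe sets, 9.02% higher and 10.3% lower). In wing discs 7 were called, 6 higher and 1 lower (10.6%, against 5.32%, 2.94% higher and 2.38% lower), and in antennal discs 6, with 5 higher and 1 lower (9.09%, against 11.5%, 7.04% higher and 4.46% lower). Across the 3 discs, 15 genes were called at least once (22.7%, against 25% of all probe sets) and 51 in none. The median change of the 56 genes above the floor somewhere was -0.01 in leg, 0.04 in wing and 0.00 in antennal discs, and that of all probe sets above the floor somewhere was 0.00, 0.00 and -0.01.

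Cpr49Ah, Cpr66D and Cpr64Ab rose in all 3 discs, which makes 3 of 66 (4.55%), against 1.81% of all probe sets. Cpr49Ah was at the floor on all wild-type leg arrays and read 10.07, 10.53 and 10.26 with UAS-ey. That was at least 10.4-fold (log2 change 3.37, SE 0.20, adjusted p = 1.1e-09). In wing discs it went from 8.24, 8.09 and 8.41 to 10.72, 9.46 and 9.88, a rise of 1.77 (SE 0.20, adjusted p = 9.2e-06), and in antennal discs from the floor on all arrays to 8.28, 8.28 and 8.27, at least 2.58-fold (adjusted p = 9.1e-05). Control and ey arrays did not overlap in any of the 3 discs. The wild-type eye arrays, however, were all at the floor for Cpr49Ah.

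**Figure D2:**
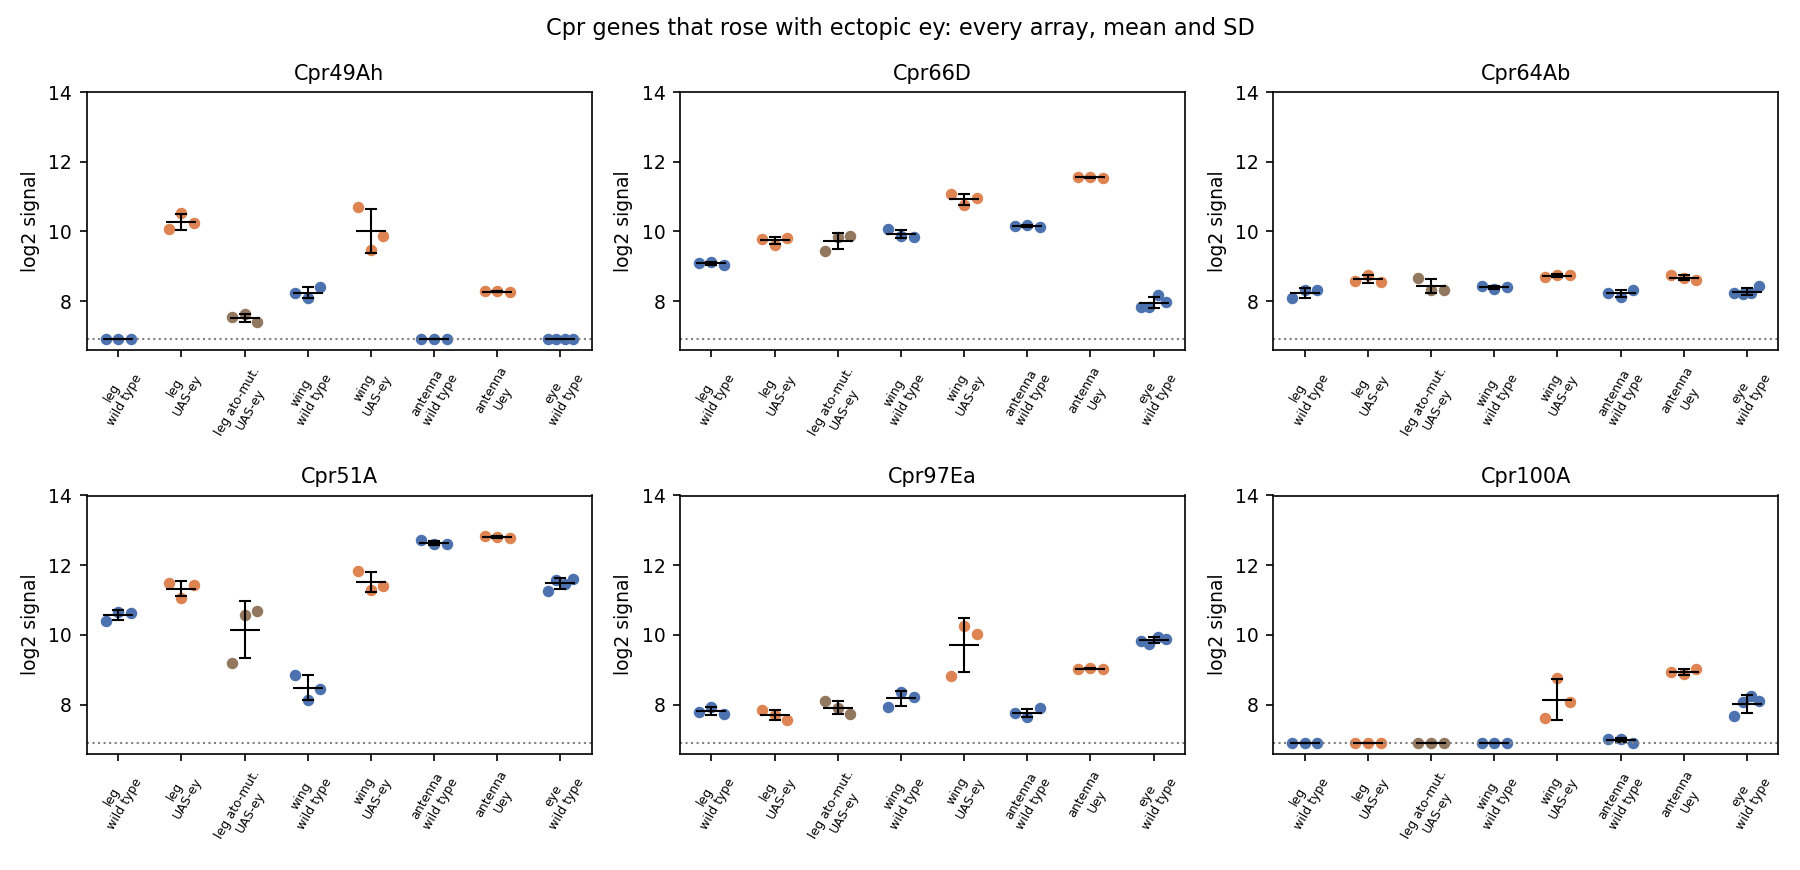
Log2 signal of each array (points) in the 8 groups, with a long bar at the group mean, error bars for the SD and the floor of 6.91 as a dotted line, for the Cpr genes that rose with ectopic ey. Cpr49Ah is at the floor in wild-type leg, antennal and eye discs and reaches 10.07 to 10.53 in UAS-ey leg discs.

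Cpr66D was already well above the floor without ectopic ey and rose further. It went from 9.09, 9.13 and 9.05 to 9.78, 9.63 and 9.83 in leg discs (log2 change 0.66, SE 0.10, adjusted p = 2.3e-04). It went from 10.07, 9.88 and 9.85 to 11.06, 10.76 and 10.95 in wing discs (log2 change 0.99, SE 0.10, adjusted p = 5.3e-06) and from 10.15, 10.20 and 10.13 to 11.55, 11.57 and 11.52 in antennal discs (log2 change 1.39, SE 0.10, adjusted p = 2.7e-08). In no disc did the groups overlap, and all ey and control arrays of these discs lay above the eye arrays. Cpr64Ab, named after its values were seen, had small changes of 0.39 in leg (SE 0.09, adjusted p = 0.004), 0.33 in wing (SE 0.09, adjusted p = 0.035) and 0.44 in antennal discs (SE 0.09, adjusted p = 0.0023). The wing call of Cpr64Ab was lost when any single wing array was left out, with changes of 0.31 to 0.36.

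Cpr97Ea and Cpr100A, the 2 named genes that were higher in eye than in antennal discs, rose in wing and antennal discs. Cpr97Ea went from 7.95, 8.38 and 8.22 to 8.84, 10.27 and 10.04 in wing discs (log2 change 1.53, SE 0.24, adjusted p = 4.3e-04). In antennal discs it went from 7.75, 7.65 and 7.89 to 9.03, 9.05 and 9.03 (log2 change 1.27, SE 0.24, adjusted p = 0.0012). In leg discs Cpr97Ea read 7.79, 7.95 and 7.73 without and 7.85, 7.71 and 7.57 with UAS-ey, and these arrays overlapped.

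Cpr100A was at the floor on all wild-type wing arrays and read 7.62, 8.76 and 8.06 with UAS-ey, at least 2.36-fold (adjusted p = 2.7e-04). In antennal discs it went from 7.01, 7.02 and 6.91 to 8.94, 8.87 and 9.04 (log2 change 1.97, SE 0.18, adjusted p = 4.9e-07). All 9 leg arrays were at the floor for Cpr100A, the 6 with UAS-ey included.

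Cpr51A had the largest change of the family in wing discs. It went from 8.85, 8.14 and 8.46 to 11.84, 11.30 and 11.42, a rise of 3.03 on the log2 scale (SE 0.28, adjusted p = 9e-07), so that the UAS-ey wing arrays overlapped the range of the wild-type eye arrays. In leg discs the arrays went from 10.39, 10.65 and 10.64 to 11.48, 11.07 and 11.43 without overlap, but the difference of 0.77 missed the threshold (adjusted p = 0.063). In antennal discs it read 12.71, 12.61 and 12.61 without and 12.84, 12.82 and 12.79 with Uey, and was not called.

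The first UAS-ey wing array stood apart from the other 2 for several genes. It had the lowest Cpr97Ea (8.84), the lowest Cpr100A (7.62), and 10.81 for Cpr49Ac where the others had 12.82 and 12.51. In wing discs Cpr49Ac read 12.34, 12.68 and 12.64 without UAS-ey, and its difference of -0.51 was not called. Leaving out the first UAS-ey array turned that difference to 0.11. When only the 6 wing arrays entered the fit, the wing calls of Cpr49Ah (adjusted p = 0.19), Cpr66D (adjusted p = 0.055), Cpr97Ea (adjusted p = 0.33) and Cpr100A (adjusted p = 0.27) were lost, and 2 genes were called instead of 7.

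The single wing gene that fell was Cpr67Fa2, named after its values were seen, with a change of -0.61 (SE 0.15, adjusted p = 0.024). Its call was lost without the first (adjusted p = 0.053) or the second UAS-ey wing array (adjusted p = 0.089). It was also lost with only the wing arrays in the fit (adjusted p = 0.55) and with the 3′ phe signal as a covariate (adjusted p = 0.063). Its neighbour Cpr67Fa1 shares a probe set with it on this array, one of those left out, so signal may be split between the copies. That shared probe set had wing means of 9.64 without and 9.69 with UAS-ey.

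Markers of other tissues moved beside these comparisons. The summed log2 level of 11 salivary gland markers was 13.08 to 14.74 in wild-type and 11.62 to 12.18 in UAS-ey wing discs, with 4 of 11 lower, and ng1 was at the floor in both groups. Of 5 fat body markers 0 were called there (limma, 1 at an unadjusted p under 0.05), with summed log2 levels of 12.61 to 14.24 without and 11.24 to 12.63 with UAS-ey. In antennal discs 4 of 8 muscle genes were higher and 3 lower with Uey, among the former the flight muscle actin Act88F, from the floor to a mean of 13.26. Of 10 haemocyte markers, 3 were lower in Uey antennal discs, with summed log2 levels of 12.38 to 12.60 without and 11.73 to 11.89 with Uey, and eater, He, PPO1 and srp at the floor with Uey. The part of these tissues in the Cpr differences was not tested.

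**Figure D3:**
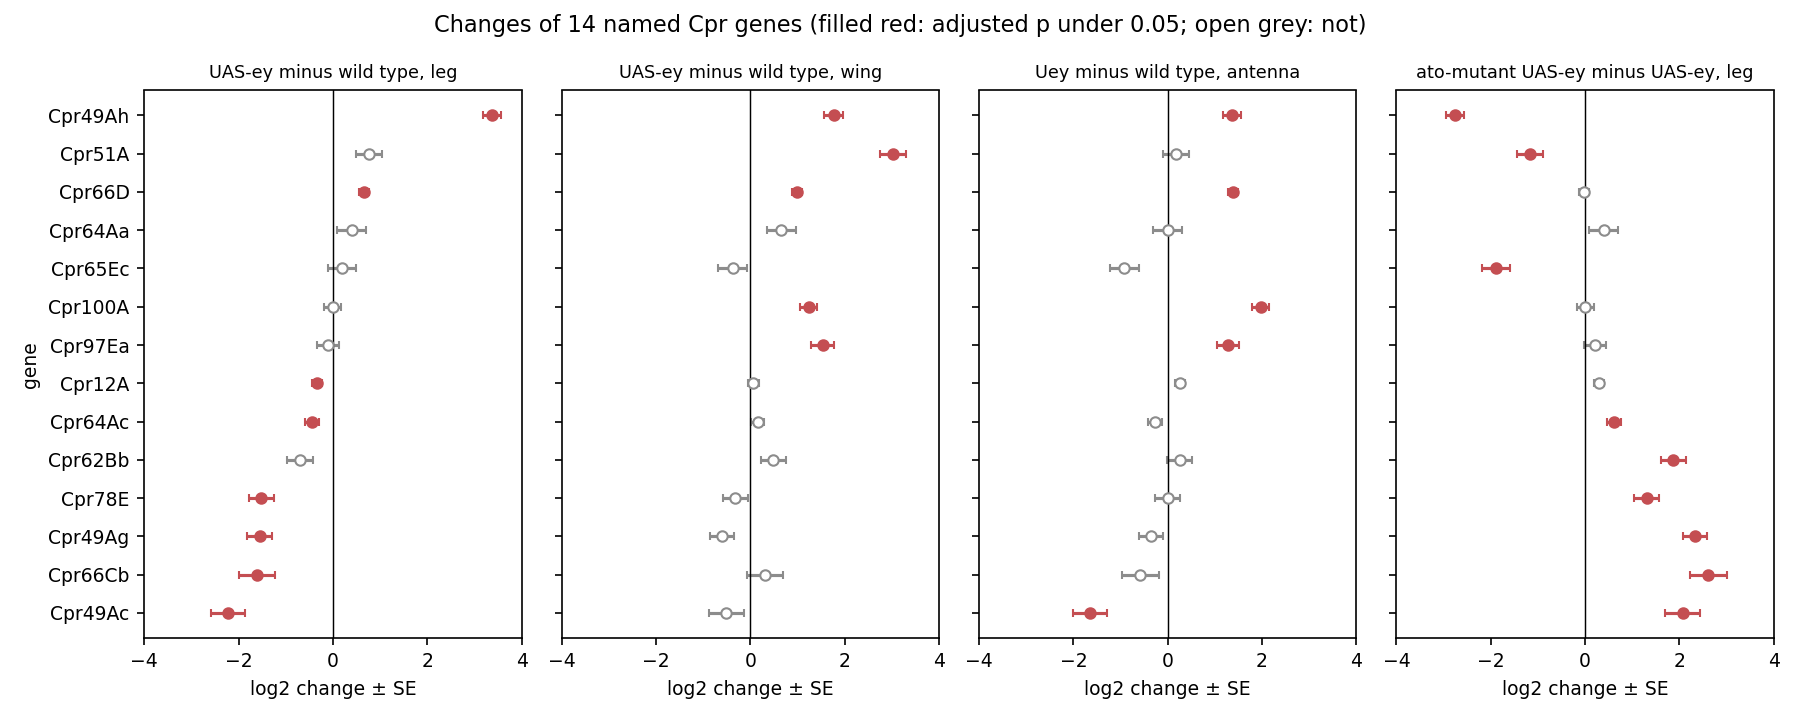
Log2 change with its SE of the 14 Cpr genes named by rule in the comparisons with ectopic ey, red where the adjusted p is under 0.05 and open grey where not. Cpr49Ah and Cpr66D are red and to the right of 0 in leg, wing and antennal discs, and Cpr49Ac is red and to the left in leg and antennal discs.

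Cpr49Ac fell in both leg and antennal discs. In leg discs it went from 12.31, 12.23 and 11.69 to 10.18, 9.74 and 9.63 with UAS-ey (log2 change -2.23, SE 0.37, adjusted p = 3.2e-04). In antennal discs it went from 11.29, 11.10 and 11.02 to 9.43, 9.48 and 9.56 with Uey (log2 change -1.65, SE 0.37, adjusted p = 0.005). The groups did not overlap in either disc, and the eye discs, at 9.04 to 10.03, overlapped the Uey antennal and UAS-ey leg arrays. Cpr65Ec was lower in Uey antennal discs without overlap, at 8.05, 8.08 and 7.99 against 9.04, 8.92 and 8.93, but its change of -0.92 missed the threshold (adjusted p = 0.06).

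In leg discs 5 of 66 Cpr genes were called with a change of at least 2-fold, 1 higher and 4 lower (7.58%, against 3.04% of all probe sets). Beside Cpr49Ac, the 3 other falls were those of Cpr49Ag, Cpr66Cb and Cpr78E. Cpr49Ag went from 9.91, 9.38 and 9.09 to 8.59, 7.78 and 7.36 (log2 change -1.55, SE 0.26, adjusted p = 3.5e-04). Cpr66Cb went from 10.73, 10.45 and 9.70 to 8.62, 8.47 and 8.97 (log2 change -1.61, SE 0.39, adjusted p = 0.0061). Cpr78E went from 8.73, 8.45 and 8.18 to 6.99, 6.91 and 6.91 (log2 change -1.52, SE 0.26, adjusted p = 4.4e-04). None of the 3 overlapped between the groups, and on UAS-ey leg arrays Cpr78E lay at or just above the floor. When only the 6 arrays of these groups entered the fit, 8 genes were called instead of 11, 5 of them shared, and the calls of Cpr49Ag (adjusted p = 0.093) and Cpr66Cb (adjusted p = 0.0502) were lost. The remaining falls, Cpr12A and Cpr64Ac, were under 1.5-fold, and so were the remaining rises, Cpr30F and Cpr47Ef.

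Several of these leg falls coincided with the array sets. Of the 66 Cpr genes, 5 were lower on every one of the 13 arrays with low phe signal than on any of the other 12 (7.58%, against 2.82% of all probe sets), and 0 were higher (against 0.107%). Cpr49Ag read 6.91 to 8.59 in the first set and 9.09 to 11.44 in the second. Cpr66Cb read 8.44 to 9.32 and 9.70 to 11.79, and Cpr78E 6.91 to 6.99 and 7.64 to 9.26. The other 2 were Cpr62Bb, at 7.92 to 9.33 and 9.34 to 10.99, and Cpr64Ac, at 9.77 to 10.41 in the first set and from 10.47 upward in the second. All 5 thus had a lower band, with eye, antennal and UAS-ey leg discs, and a higher band, with wing and the other leg discs.

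With the 3′ phe signal as a covariate, a setting added after seeing the data, 3 genes were called in leg discs instead of 11. That signal was 10.37 to 10.89 in wild-type and 8.37 to 8.65 in UAS-ey leg discs. Without overlap, the covariate cannot separate array set from ey, and kept or lost calls do not tell them apart. Cpr49Ah (3.42) and Cpr66D (0.72) kept their rise, and Cpr62Bb, at -0.70 and not called without the covariate, turned to 0.81 (adjusted p = 0.014). Cpr49Ac (-1.84, adjusted p = 0.17), Cpr49Ag (-1.46, adjusted p = 0.11) and Cpr78E (-1.63, adjusted p = 0.076) kept their direction without passing, and Cpr66Cb went to -0.04. The antennal fall of Cpr49Ac lay within a single array set. Salivary gland markers were also lower in UAS-ey leg discs, 6 of 11, with summed log2 levels of 13.45 to 14.11 in wild-type and 11.52 to 11.94 in UAS-ey discs and ng1, ng2 and ng4 at the floor in both, and their part was not tested.

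**Figure D4:**
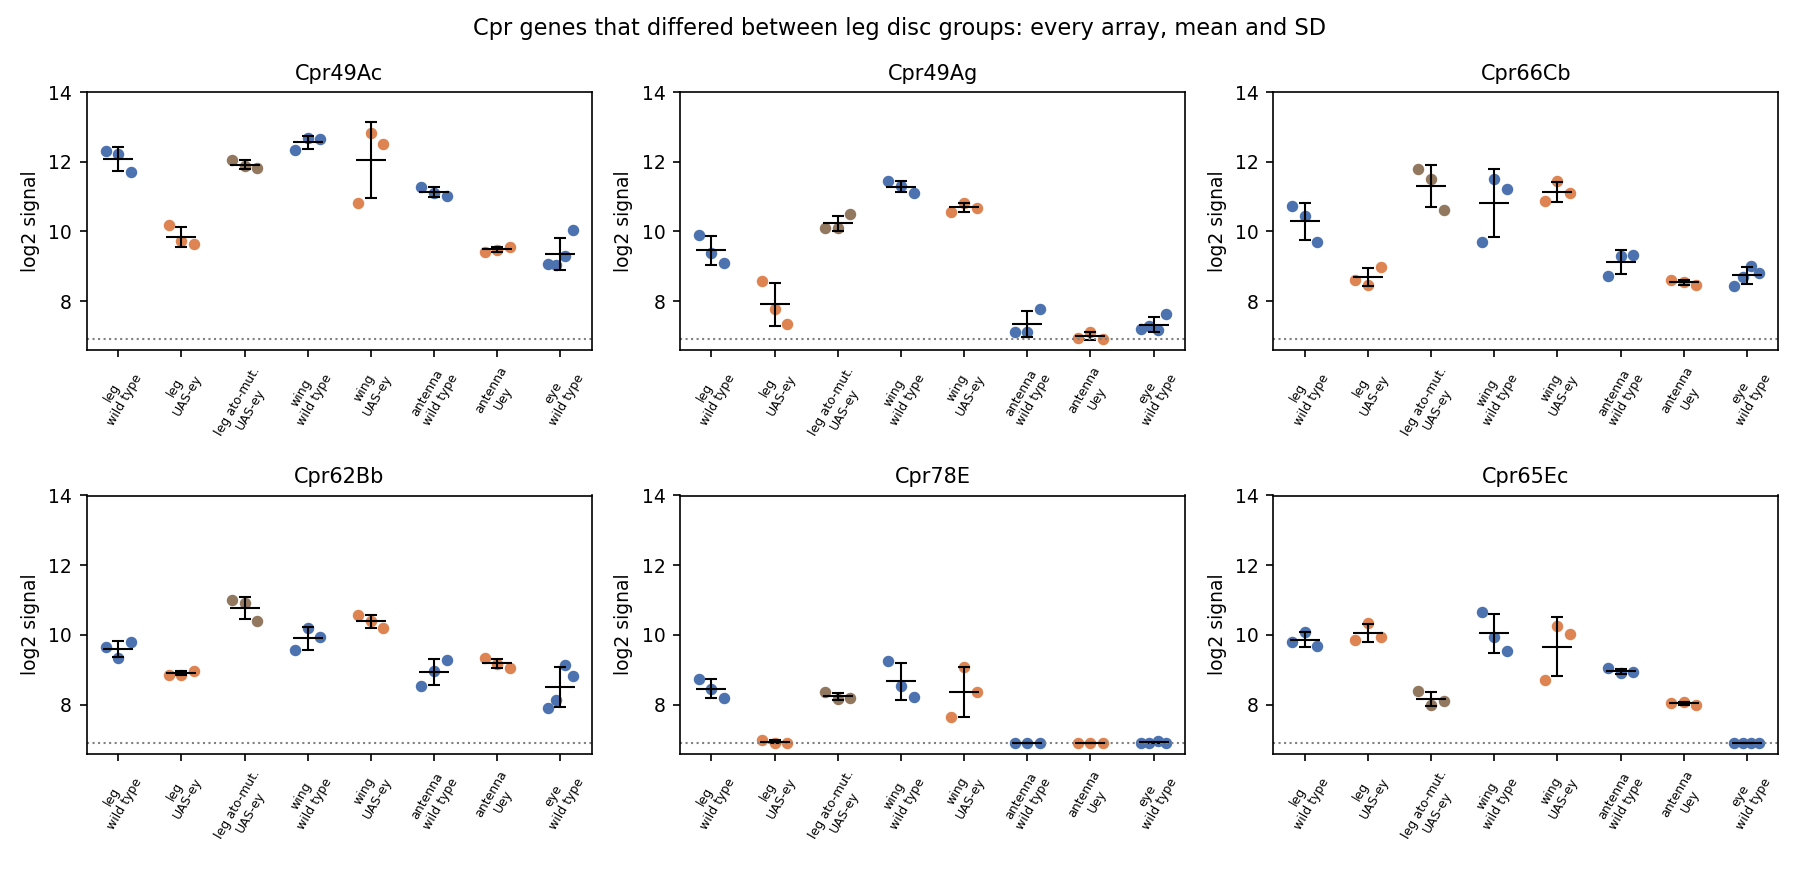
Log2 signal of each array (points) in the 8 groups, with a long bar at the group mean, error bars for the SD and the floor of 6.91 as a dotted line, for Cpr genes that were lower in UAS-ey leg discs or differed in ato-mutant leg discs. Cpr49Ag, Cpr62Bb, Cpr66Cb and Cpr78E are lower in eye, antennal and UAS-ey leg discs than in wing and the other leg discs.

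With ato mutant and UAS-ey present, leg discs had 11 Cpr genes that differed from wild-type leg discs, 10 higher and 1 lower (16.7%, against 21.1% of all probe sets, 12.3% higher and 8.87% lower). Of the 66 Cpr genes, Cpr62Bb and Cpr65Ec were called with a change of at least 2-fold (3.03%, against 2.85% of all probe sets). Cpr62Bb went from 9.64, 9.34 and 9.81 in wild-type to 10.99, 10.92 and 10.40 (log2 change 1.17, SE 0.27, adjusted p = 0.004). Cpr65Ec went from 9.81, 10.10 and 9.68 to 8.40, 8.0 and 8.11 (log2 change -1.69, SE 0.30, adjusted p = 5e-04), and its arrays in UAS-ey leg discs with ato intact, at 9.86, 10.35 and 9.96, overlapped wild-type. For either gene the ato-mutant arrays did not overlap wild-type. When only the 6 arrays of these groups entered the fit, 2 genes were called instead of 11, Cpr65Ec and Cpr49Ah, and the calls of Cpr62Bb (adjusted p = 0.057) and Cpr66D (adjusted p = 0.069) were lost.

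The 2 UAS-ey leg groups were alike for Cpr66D and differed for Cpr49Ah. Without an ato-mutant group lacking UAS-ey, a changed ey response and an effect of the mutant alone cannot be told apart. Cpr66D read 9.45, 9.84 and 9.87 in ato-mutant discs, overlapping the other UAS-ey leg discs, with a rise over wild-type of 0.63 (SE 0.10, adjusted p = 2.3e-04). Its difference between the UAS-ey groups, -0.02 (SE 0.10), was not called. Cpr49Ah read 7.54, 7.63 and 7.40 in ato-mutant discs, between the floor of the wild-type arrays and the 10.07 to 10.53 of UAS-ey discs. It was thus at least 1.53-fold above wild-type (adjusted p = 0.032) and 6.78-fold below UAS-ey discs (log2 change -2.76, SE 0.20, adjusted p = 1.8e-08). The first of these calls was lost in 11 alternatives, with adjusted p of 0.05 to 0.10. The second held with the 3′ phe covariate (-2.82), which does not overlap between those groups and so cannot separate array set from group.

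Between the 2 UAS-ey leg groups 22 Cpr genes differed, 13 higher and 9 lower in the ato mutant (33.3%, against 23.5% of all probe sets, 14.5% higher and 9.03% lower). Cpr49Ac read 12.05, 11.89 and 11.81 (log2 change 2.07, SE 0.37, adjusted p = 4.5e-04), Cpr49Ag at 10.11, 10.11 and 10.49 (log2 change 2.33, SE 0.26, adjusted p = 5e-06), Cpr66Cb at 11.79, 11.50 and 10.62 (log2 change 2.62, SE 0.39, adjusted p = 8.1e-05) and Cpr78E at 8.37, 8.17 and 8.20 (log2 change 1.31, SE 0.26, adjusted p = 0.0012). For each of these 4 genes the ato-mutant arrays lay above all UAS-ey arrays, as the wild-type arrays did. Cpr51A was lower in the mutant, at 9.20, 10.57 and 10.70 (log2 change -1.17, SE 0.28, adjusted p = 0.0049), and its first array stood apart. This comparison crossed the array sets, and with the 3′ phe covariate 2 genes were called, Cpr49Ag (2.22) and Cpr49Ah (-2.82). The covariate was 8.37 to 8.65 in UAS-ey and 10.53 to 11.15 in ato-mutant discs, so it cannot separate set from group.

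Haemocyte and fat body markers were higher in the ato-mutant discs. All 10 haemocyte markers were higher than in UAS-ey leg discs and 9 of 10 higher than in wild-type discs. Their summed log2 level was 12.78 to 13.36 in wild-type, 12.50 to 12.69 in UAS-ey and 13.78 to 15.06 in ato-mutant discs, with srp at the floor in the first 2 groups. Of 5 fat body markers measured, 3 were higher than in either group, with summed log2 levels of 12.09 to 13.02 in wild-type, 11.13 to 13.30 in UAS-ey and 15.0 to 15.48 in ato-mutant discs. Of 11 salivary gland markers, 8 were higher than in UAS-ey discs, and ng4 alone stayed at the floor. Against wild-type discs, 3 of the 11 were higher and 1 lower, and of 8 muscle genes 1 was higher and 1 lower. The part of these tissues in the Cpr differences was not tested.

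The effect of ey was also compared between discs directly. It differed between leg and wing discs for 5 Cpr genes (7.58%, against 4.69% of all probe sets), between leg and antennal discs for 5 (7.58%, against 2.21%) and between wing and antennal discs for 1 (1.52%, against 0.943%). In at least 1 of the 3 tests 7 genes differed (10.6%, against 6.19% of all probe sets). The rise of Cpr49Ah in leg discs, itself a lower bound, exceeded the wing rise by at least 1.60 (adjusted p = 0.0034). The leg and antennal rises of Cpr49Ah both start from the floor, so the size and direction of their difference are not determined. For Cpr51A the wing rise exceeded the antennal change by 2.86 (SE 0.39, adjusted p = 3.5e-04), and leg minus wing was -2.26 (SE 0.39, adjusted p = 0.0036). The change of Cpr97Ea in leg discs was lower than that in wing discs (leg minus wing -1.64, SE 0.33, adjusted p = 0.008), and lower than that with Uey in antennal discs (leg minus antenna -1.38, SE 0.33, adjusted p = 0.035). The last call was lost when most single arrays were left out. All comparisons that involve the leg effect cross the array sets. With the 3′ phe covariate, which cannot separate set from group there, 0 genes differed between leg and wing and 2 between leg and antennal discs.

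Many Cpr genes lie in clusters. In the RefSeq gene order, 25 pairs of Cpr genes lay next to each other with no gene between. For 18 of them neither gene was at the floor throughout, and the median correlation over the 8 group means was 0.49, with a range of -0.51 to 0.90, beside a median of 0.19 over all 1540 pairs of Cpr genes above the floor somewhere. Group means of both genes spanned at least 1 in 1 pair, those of 1 gene in 8 pairs and those of neither in 16. Cpr64Aa, for example, lies next to Cpr64Ab, whose group means were all 8.23 to 8.74, while its own ran from the floor to 11.48. These correlations share the same arrays and are a description.

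Among the 17 genes whose group means spanned at least 1, the most alike over the 8 group means were Cpr12A and Cpr64Aa (r = 0.97), Cpr49Ag with Cpr67Fa1 (r = 0.96) and with Cpr78E (r = 0.96), and Cpr49Ag and Cpr66Cb (r = 0.94), none of them neighbours. Cpr97Ea and Cpr100A, the pair higher in eye discs, had an r of 0.81, and Cpr49Ag and Cpr51A ran opposite with an r of -0.81. These values rest on 8 group means each. Cpr49Ag, Cpr66Cb and Cpr78E were lower on every array with low phe signal, so their likeness and the array set cannot be told apart.

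Other genes of cuticle formation, taken from fixed lists, were compared with and without ey. Over all probe sets, 9.02% were higher and 10.3% lower in leg, 2.94% and 2.38% in wing, and 7.04% and 4.46% in antennal discs. The counts below stand beside these shares. Among these comparisons, that of leg discs crossed the array sets. Of 16 measured genes of other cuticle proteins, among them the larval (Lcp) and pupal families, 1 was higher and 2 lower in leg discs with ey, and 1 higher in wing and in antennal discs each. The gene higher in all 3 was Lcp65Ad. Edg91, an ecdysone-dependent cuticle gene, was 1.65 higher in ato-mutant than in wild-type leg discs (SE 0.47, adjusted p = 0.017). Of 22 Tweedle genes, a family of cuticle proteins without the Rebers-Riddiford domain, 2 were higher and 2 lower in leg, 1 higher in wing and 1 higher in antennal discs. TwdlE rose by 2.0 in wing discs (SE 0.23, adjusted p = 1.8e-05) and TwdlT by 1.24 in antennal discs (SE 0.34, adjusted p = 0.022).

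Genes that make, shape or bind chitin were mostly higher where they were called. Of 29 measured, 11 were higher and 1 lower in leg discs with ey, 6 higher and 0 lower in wing discs, and 9 higher and 1 lower in antennal discs. All probe sets were higher in 9.02%, 2.94% and 7.04% in the same comparisons, of which only that of leg discs crossed the array sets. In leg discs exp, needed for chitin deposition in tracheae, rose by 1.99 (SE 0.11, adjusted p = 9.3e-10) and the chitinase gene Cht7 by 1.27 (SE 0.27, adjusted p = 0.0027). In wing discs Gasp, which encodes a chitin-binding protein of tracheae, rose by 1.23 (SE 0.14, adjusted p = 8.8e-06). In antennal discs the chitinase genes Cht5 and Cht6 rose by 1.74 (SE 0.24, adjusted p = 7e-05) and 1.06 (SE 0.17, adjusted p = 2.3e-04). Of 5 trachea markers measured, which include Gasp, serp and verm of this list, 3 were higher in leg, 3 in wing and 2 in antennal discs, and their part was not tested.

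The zona pellucida genes, which shape the apical matrix, held 3 of 9 lower in leg discs and 0 called in wing or antennal discs (limma, 1 in each at an unadjusted p under 0.05). In leg discs cyr fell by 1.39 (SE 0.35, adjusted p = 0.0077) and mey by 1.21 (SE 0.26, adjusted p = 0.0028). Of 10 tanning and pigment genes, 2 were lower in leg, 1 higher in wing and 1 higher in antennal discs. Beside both lists, all probe sets were lower in 10.3%, 2.38% and 4.46% and higher in 9.02%, 2.94% and 7.04% in the same comparisons. Pu, which encodes the first enzyme of pteridine synthesis, went to the floor on all UAS-ey leg arrays from a mean of 8.03. For both lists only the leg comparison crossed the array sets, so array set and ey cannot be told apart there.

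Genes of the ecdysone response, the hormone cascade that times cuticle synthesis, were mostly lower where they were called with ey in leg and antennal discs. Of 17 measured, 1 was higher and 7 lower in leg, 1 higher and 1 lower in wing, and 2 higher and 5 lower in antennal discs. All probe sets were lower in 10.3%, 2.38% and 4.46% in the same comparisons. Their median change was -0.46 in leg, -0.03 in wing and -0.43 in antennal discs, with the gene at the floor on all arrays left out. The leg comparison crossed the array sets. Within 1 set, ato-mutant UAS-ey leg discs had 2 genes higher and 1 lower than wild-type (median 0.02, against 12.3% and 8.87% of all probe sets). Across the sets, they had 8 higher and 0 lower than UAS-ey leg discs (median 0.64, against 14.5% and 9.03%). In leg discs ImpE2 fell by 1.69 (SE 0.23, adjusted p = 4.4e-05) and Blimp-1, an ecdysone-induced repressor of ftz-f1, fell by 1.94 (SE 0.38, adjusted p = 0.0014). ftz-f1, which encodes a nuclear receptor of this cascade, rose by 2.01 in leg (SE 0.30, adjusted p = 1.3e-04), 1.56 in wing (SE 0.30, adjusted p = 0.0033) and 1.80 in antennal discs (SE 0.30, adjusted p = 4.3e-04). In ato-mutant leg discs ftz-f1 was 2.42 above wild-type (SE 0.30, adjusted p = 1.2e-05). Blimp-1 was called lower with ey in leg and antennal discs, but not in wing discs or in ato-mutant against wild-type leg discs. A link between these genes was not tested. The sources used here give no finer staging of the larvae, and the part of the ecdysone response in the Cpr differences was not tested.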

How the data were processed

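Per the labels' protocols, Trizol RNA (100 ng per sample) was amplified with a two-cycle protocol, biotin-labelled and hybridised to 1 array per sample. The deposited values were log2 signals, 1 per probe set. How they were summarised and scaled is not given in the sources used here, and the deposited scaling was kept. The shared lowest value of 6.91 (120.5 on the linear scale) was treated as a floor of the authors' making. Depth does not apply to arrays, and their number limits the precision. Of 18952 probe sets, 183 controls were left out. Gene names came from the platform annotation, and neighbours from the RefSeq gene table (Release 6 assembly).

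Groups were taken from the sample titles. Differences were fitted in limma 3.58.1 (R 4.3.3) as group means over the 25 arrays, followed by contrasts and eBayes, two-sided, with Benjamini-Hochberg adjustment over 18769 probe sets (17 residual and 0.45 prior degrees of freedom). The script was tested on simulated data. For genes at the floor in whole groups, SE and adjusted p can understate the spread, since those arrays add none.

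Members, lists, tests and alternatives were chosen with earlier results of these data known. Named by rule were the Cpr genes called with a change of at least 1 in an ey comparison, and the 10 highest in any wild-type disc. List genes were named where called with such a change. Same-numbered arrays deviated together (correlations of 0.14 to 0.15) only between eye and antennal discs. Correlations over 0.1 in every pair were taken as pairing, although no label says what a number marks. Alternatives covered scaling, the filter on floor values, the arrays in the fit, the replicate block, the phe control signal, the probe set of a gene and each array left out.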

Additional observations from a re-analysis of the deposited data

Results flagged for a closer look

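In the eye discs, the only group with 4 arrays, 1 array lay far from the others for 6 of the Cpr genes. The values below give the gap to the nearest other array divided by the range of the 4. They were 0.971 for Cpr64Ab (8.22, 8.22, 8.22 and 8.43), 0.831 for Cpr64Ad (9.37, 9.39, 9.44 and 9.79) and 0.878 for Cpr65Av (7.92, 7.94, 7.96 and 8.28). They were 1 for Cpr65Aw, Cpr65Eb and Cpr78E, where 3 arrays were at the floor and the other reached 7.03, 6.98 and 6.95. In each case the array apart was the highest, and for all but Cpr78E it was replicate 4. Over the whole array, replicate 4 also had the highest median of the eye arrays (7.76, against 7.53 to 7.59). It had the fewest values at the floor (28.6%, against 32.6% to 33.9%). The share of all probe sets flagged in this way is not given here, so the count is not a result about Cpr genes. Chance flags about 1 in 20 groups where values are not tied. That rate does not hold for Cpr65Aw, Cpr65Eb and Cpr78E, since with 3 arrays at the floor the value is 1 whatever the excess.

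The ey effect differed between discs in the direct test for the Cpr genes below. As leg minus wing, the difference was -1.24 for Cpr100A, 1.60 for Cpr49Ah, -2.26 for Cpr51A, 0.80 for Cpr67Fa2 and -1.64 for Cpr97Ea. As leg minus antenna, it was -1.97 for Cpr100A, 2.01 for Cpr49Ah, -0.73 for Cpr66D, -1.52 for Cpr78E and -1.38 for Cpr97Ea. As wing minus antenna, it was 2.86 for Cpr51A. Groups at the floor enter the values of Cpr100A, Cpr49Ah and Cpr78E. For Cpr49Ah both control groups of leg minus antenna were at the floor, for Cpr100A all leg arrays and for Cpr78E the antennal arrays, so the size and direction of these differences are not determined.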

How the results depend on the processing

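Counts of called Cpr genes moved most with the arrays in the fit and the control signal. With only the arrays of the groups compared, 2 were called in wing, 11 in antennal, 2 between ato-mutant and wild-type leg, 10 between the UAS-ey leg groups, 4 between leg and wing discs and 1 for leg minus wing. For leg minus wing (5 in the report), median centring gave 9 and leaving out probe sets at the floor throughout gave 8. The mean phe signal as a covariate gave 2, 7 between ato-mutant and wild-type leg discs, and 2 for wing minus antenna. The 3′ phe signal alone gave 3 in leg discs, 2 between the UAS-ey leg groups, 0 for leg minus wing and 2 for leg minus antenna. Centring on probe sets above the floor, added after seeing the data, gave 6 between ato-mutant and wild-type leg discs. The cause of these moves was not tested. Where a comparison crosses the array sets, the 3′ phe signal cannot separate set from group.

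With the 3′ phe covariate these differences turned: Cpr62Bb in leg (0.81), antenna minus leg (0.40), leg minus wing (0.80) and leg minus antenna (0.077), Cpr64Ac in leg (0.25), between the UAS-ey leg groups (-0.20) and leg minus wing (0.32), Cpr66Cb for leg minus wing (0.14), leg minus antenna (0.038) and wing minus antenna (-0.10), and Cpr67Fa1 between the UAS-ey leg groups (-0.10). Over the left-out arrays Cpr49Ac in wing discs ran from -0.89 to 0.11, the latter without the first UAS-ey array.

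With 1 array left out, 7 to 9 were called in leg, 5 to 7 in wing, 6 in antennal discs, 5 to 13 between ato-mutant and wild-type leg, 14 to 22 between the UAS-ey leg groups, 6 to 16 between leg and wing, 7 to 8 between antenna and leg, 8 between eye and antenna, 20 to 32 among wild-type discs, 4 to 8 for leg minus wing, 3 to 5 for leg minus antenna and 1 to 3 for wing minus antenna. The 7 in leg discs came without UAS-ey array 2 or any wild-type array, the 14 without UAS-ey leg array 2, the 16 without wild-type wing array 1, and the 8 for leg minus wing without wild-type leg array 3. The 3 for leg minus antenna came without any antennal array, UAS-ey leg array 2 or 3 or wild-type leg array 1 or 2, and for wing minus antenna 3 were called without UAS-ey wing array 1 and 2 without array 2. Between ato-mutant and wild-type leg discs, 6 were called without ato-mutant array 1 or 2 or wild-type array 1, 7 without wild-type array 2 and 5 without wild-type array 3.

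With the replicate block, 11, 7, 6, 8 and 22 were called in leg, wing, antennal, ato-mutant against wild-type and between the UAS-ey leg groups, and 8 between eye and antennal discs. Elsewhere than between eye and antenna the arrays share only a number. Median and quantile scaling moved the median of all probe sets by over 0.1 only between the UAS-ey leg groups (-0.13 each).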
